A study of Mus musculus with 8 samples.

Results

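The 33 genes described here make up the protein folding apparatus of the endoplasmic reticulum (ER) and the unfolded protein response that adjusts it. They were given as a list of symbols that follows known roles, with no threshold on measured values, though earlier results of these data were known when it was drawn up. They were found by symbol among the 55335 genes of the count table. Ddit3 has 2 rows there, of which the second, a locus of 105 bases, held 0 counts in every library, so 34 rows carry the 33 symbols and the longer Ddit3 row was used. All 33 passed the filter on low counts, among 17618 genes that did. By role the list holds 3 sensors, 3 transcription factors, 3 targets of ATF4 and CHOP, 5 ER stress targets, 6 folding enzymes and lectins, 8 genes of ER-associated degradation (ERAD) and 5 genes of the translocon.

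The tissue was the vagal ganglia of mice with the genotype WT, which hold the cell bodies of vagal sensory neurons. One group was treated with HDM, which commonly stands for house dust mite, an airborne allergen, and the other with saline. Both were harvested 1.5 h after challenge number 4. Each group has 4 libraries, and 1 library pools 6 to 8 ganglia of 3 to 4 mice, so its spread joins animals and preparation and no single animal can be seen. A batch label from 1 to 4 equals the replicate number, and every batch holds 1 library of each treatment. The sources used here do not give strain, age, sex, or the dose and route of HDM.

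Nearly every protein that a cell secretes or puts in its membranes enters the ER through the translocon, folds there with the help of chaperones, lectins and disulfide isomerases, and is pulled out and destroyed by ERAD if it does not fold. When unfolded protein builds up, the sensors IRE1 (Ern1), ATF6 and PERK (Eif2ak3) start the unfolded protein response: IRE1 splices the Xbp1 mRNA, ATF6 is cut free to enter the nucleus, and PERK phosphorylates a translation factor, which lowers protein synthesis and favours translation of Atf4. XBP1 and ATF6 induce chaperones and ERAD genes, while ATF4 and CHOP (Ddit3) induce amino acid metabolism and, under lasting stress, genes tied to cell death. Sensory neurons make large amounts of membrane and secreted protein, and a count per gene shows neither splicing of Xbp1, nor cleavage of ATF6, nor phosphorylation.

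The response acts on promoters through short elements, which are shown here because each belongs to a known branch of the response. The ER stress response element ERSE, CCAAT and CCACG with 9 bases between them, is known as the site of ATF6 with the factor NF-Y. ERSE-II, ATTGG and CCACG with 1 base between them, was described in the Herpud1 promoter, UPRE (TGACGTGG) is bound by ATF6 and XBP1, and CARE (TTGCATCA) by ATF4 with C/EBP proteins. Windows of 300 bases, from 250 before to 50 after the start of a gene, came from RefSeq on GRCm38.p6 and were searched on both strands. Of the 33 genes, 27 matched an entry by symbol. Derl1, Sec61a1, Hyou1, Manf, Ssr2 and Atf6 are named only. ERSE was present in 6 of the 27 (22.2%), against 0.137% of the 27025 genes with an entry (0.119% of 32851 windows). ERSE-II was present in 1 of 27 (3.7%, against 0.0444% of genes and 0.0365% of windows). CARE was present in 2 of 27 (7.41%, against 1.03% and 0.895%) and UPRE in 0 of 27, against 0.714% and 0.676%. ERSE and ERSE-II share the letters CCACG, but no 2 of the matches found overlap. The matches, with 15 bases on each side, are printed 5′ to 3′ on the gene's strand with the element in capitals, and where it lies on the opposite strand the capitals show its reverse complement.
Calr ERSE, chr8:84847060-84847108, minus strand: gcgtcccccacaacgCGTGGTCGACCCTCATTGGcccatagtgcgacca
Canx ERSE, chr11:50325785-50325833, minus strand: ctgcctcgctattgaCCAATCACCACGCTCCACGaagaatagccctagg
Pdia6 ERSE, chr12:17266476-17266524, plus strand: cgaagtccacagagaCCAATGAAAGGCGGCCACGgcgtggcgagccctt
Creld2 ERSE, chr15:88819505-88819553, plus strand: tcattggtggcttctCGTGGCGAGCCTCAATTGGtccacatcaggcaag
Derl3 ERSE, chr10:75893227-75893275, plus strand: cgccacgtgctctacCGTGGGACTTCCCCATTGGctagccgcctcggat
Syvn1 ERSE, chr19:6046517-6046565, plus strand: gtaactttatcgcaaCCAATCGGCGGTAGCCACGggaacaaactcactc
Herpud1 ERSE-II, chr8:94386362-94386402, plus strand: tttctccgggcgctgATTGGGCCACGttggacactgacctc
Herpud1 CARE, chr8:94386302-94386339, plus strand: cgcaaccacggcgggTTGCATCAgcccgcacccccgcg
Chac1 CARE, chr2:119351034-119351071, plus strand: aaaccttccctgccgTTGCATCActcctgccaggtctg
Every printed element lies before the start of its gene, from 26 to 193 bases upstream. In Calr, Derl3 and Creld2 the ERSE reads on the opposite strand, and in Canx, Pdia6 and Syvn1 on the strand of the gene. Herpud1 holds ERSE-II and CARE in 1 window. Such a match is a description of the letters in the window and not a measured binding site.

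In mega-counts (M), the HDM libraries held 23.95 to 26.67 M counts each and the saline libraries 26.87 to 31.28 M. Neurons, which the labelled tissue should hold, were present by their markers: the synaptic vesicle fusion gene Snap25 had 1700 to 1983 CPM (counts per M of the library total, TMM-scaled). The summed level of 10 neuron markers was 12310 to 13280 CPM in HDM and 11550 to 11890 CPM in saline, without overlap, with Nefm and Prph passing the test, and that of 13 myelinating Schwann cell markers was 2738 to 3025 and 2866 to 3501 CPM, with Pmp22 and Ugt8a passing as lower. Fewer cells of a type and less RNA per cell cannot be told apart in such pools, and the part of cell composition in the values of the 33 genes was not tested. Plasma cells are rich in many of these transcripts. Of their defining markers, Mzb1 had 0.0325 to 0.171 CPM, where 3 counts equal 0.0956 to 0.126 CPM, and Jchain 0.642 to 1.53 CPM. The 13 plasma and B cell markers summed to 29.4 to 36.6 CPM in HDM and 31.6 to 37.4 CPM in saline, with Sdc1 (17.05 CPM) and Ighm (13.4 CPM) the most abundant. Of the plasma and B cell markers 0 of 13 were at 0 in every library. HDM 4 stood apart by sympathetic neuron markers, which summed to 930.3 CPM there and to 178 to 436 CPM elsewhere, and saline 1 by erythrocyte markers, 247 CPM against 45.8 to 78.0. Over all tested genes 244 were called with all libraries, 60 without HDM 4 and 210 without saline 1, and of the 33 genes 0 in each case. Leaving out HDM 1, HDM 2 or saline 3 instead gave 0 over all tested genes, so a fall was not particular to HDM 4.

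The apparatus was expressed in every library, and among the 33 genes those of lectins and disulfide isomerases led. Levels of different genes were compared in RPKM, CPM divided by the exonic length in kilobases. That length joins all annotated exons and can exceed the longest transcript (8049 against 4369 bases for Derl2, 4693 against 4281 for Canx). Close ranks depend on it. Calr had 126, Canx 125 and Pdia3 118 RPKM over the 8 libraries. The ranges of Calr and Canx overlap, as do those of Canx and Pdia3. All libraries of Pdia3 lie above all of Atf4, the member that comes next at 61.5 RPKM. Calr, Canx and Pdia3 exceeded 98.4% or more of the tested genes. The ER chaperone genes Hsp90b1 and Hspa5, outside the list, had 118.6 and 89.39 RPKM, so the order holds for the 33 genes only. After Atf4 came Asns (58.3), P4hb (54.7), Os9 (44.2) and Ssr3 (41.1 RPKM), each overlapping its neighbour. The sensors were among the less abundant members: Eif2ak3 stood at 10.3, Atf6 at 8.01 and Ern1 at 2.68 RPKM. Chac1 (2.53) overlapped Ern1, and Trib3 (1.20) and Derl3 (0.235 RPKM) lay apart below all others. Derl3, a derlin typical of secretory cells, stood above only 5.99% of the tested genes, while its relatives Derl1 and Derl2 had 25.6 and 5.62 RPKM.

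**Figure D1:**
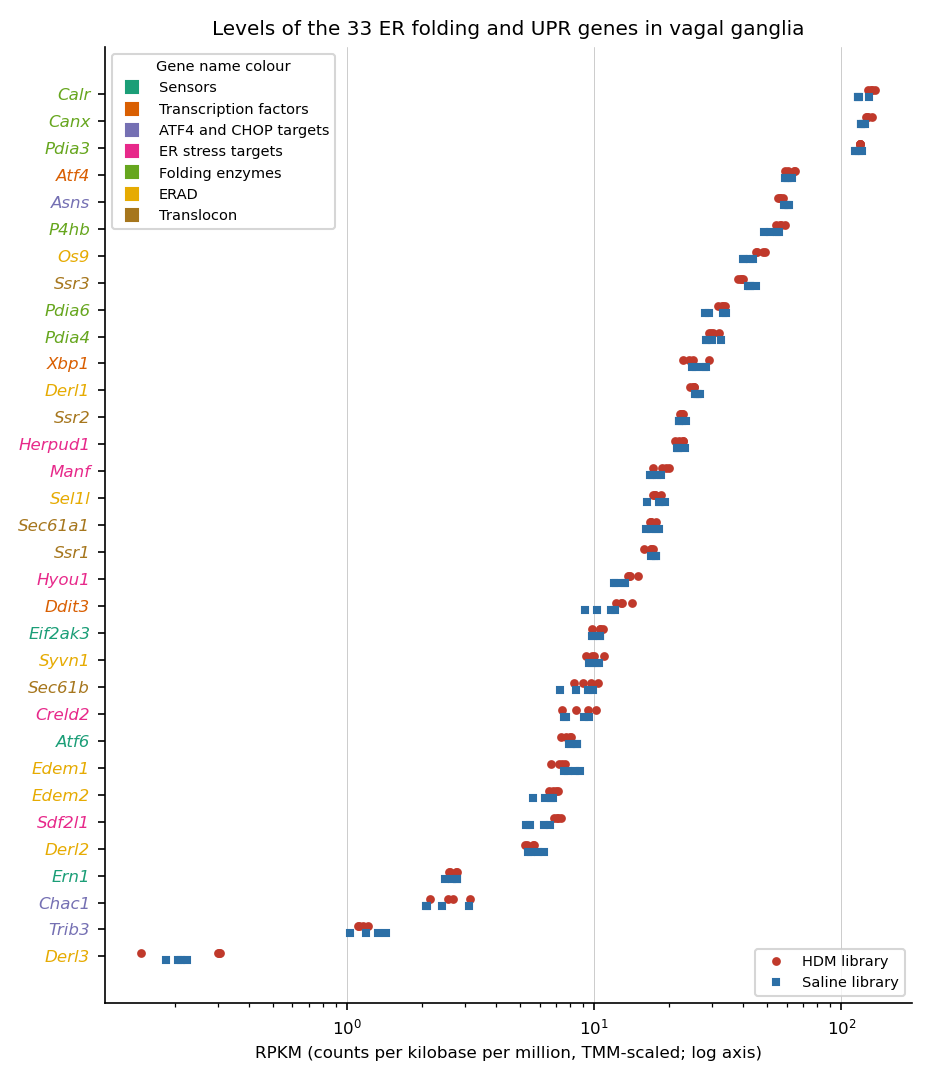
Level of each of the 33 genes in each library, as RPKM on a log axis, with genes in order of their mean. Red circles are the 4 HDM libraries, blue squares the 4 saline libraries, and the colour of a gene name gives its role. Calr, Canx and Pdia3 lie above 100 RPKM in every library and Derl3 below 1, and the 2 groups lie close together for nearly every gene.

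Between HDM and saline these genes differed little, with fitted ratios from 0.892-fold (Edem1) to 1.28-fold (Derl3). Of the 33 genes 0 passed the threshold of an adjusted p under 0.05 in the comparison by group (edgeR quasi-likelihood test), against 244 of 17618 tested genes, 1.38%. With an unadjusted p under 0.05 stood 9 of the 33 (27.3%; background 18.1%), 6 of them higher and 3 lower in HDM: Os9, Ddit3, Hyou1, Calr, Sdf2l1 and P4hb higher, and Ssr3, Edem1 and Asns lower. Limma-voom called 0 and DESeq2 called 3, Calr and Os9 as higher and Ssr3 as lower, of 30 members to which it gave an adjusted p (background 6.94%). With the batch as a block, edgeR called Os9 alone (3.03% of members; background 4.05%), and Os9 was also the 1 member with an adjusted p under 0.10 by group (3.03%; background 4.02%). The median log2 fold change of the 33 was 0.028, with 20 positive and 13 negative, beside −0.0055 over all tested genes, of which 8551 were positive and 9067 negative. In batches 1 to 4 the median difference of the members was 0.020, −0.018, 0.040 and 0.069 on the log2 scale, and without batch 4 their fitted median was −0.020.

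The libraries of the 2 groups did not overlap in 5 genes with HDM higher, Os9, Ddit3, Hyou1, Sdf2l1 and Canx (15.2% of members; background 6.25%). With HDM lower they did not overlap in 3, Asns, Derl1 and Ssr3 (9.09% of members; background 4.39%). By group, the 95% intervals of the 29 genes at or above a mean of 10 CPM were taken from the fitted error. They reached from a 0.819-fold level (Edem1) to a 1.38-fold level (Ddit3) of HDM over saline. Their median half-width was 0.10 on the log2 scale. They leave out the choice of correction: an offset for GC content moved Os9 from 0.17 to 0.075 and Canx from 0.079 to 0.15. Sdf2l1, Trib3, Chac1 and Derl3, under 10 CPM, had intervals between 0.734-fold and 2.03-fold. The coefficient of variation within groups had a median of 4.93% over the 33 genes, and was lowest for Derl1 (1.89%) and highest for Derl3 (21.6%).

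**Figure D2:**
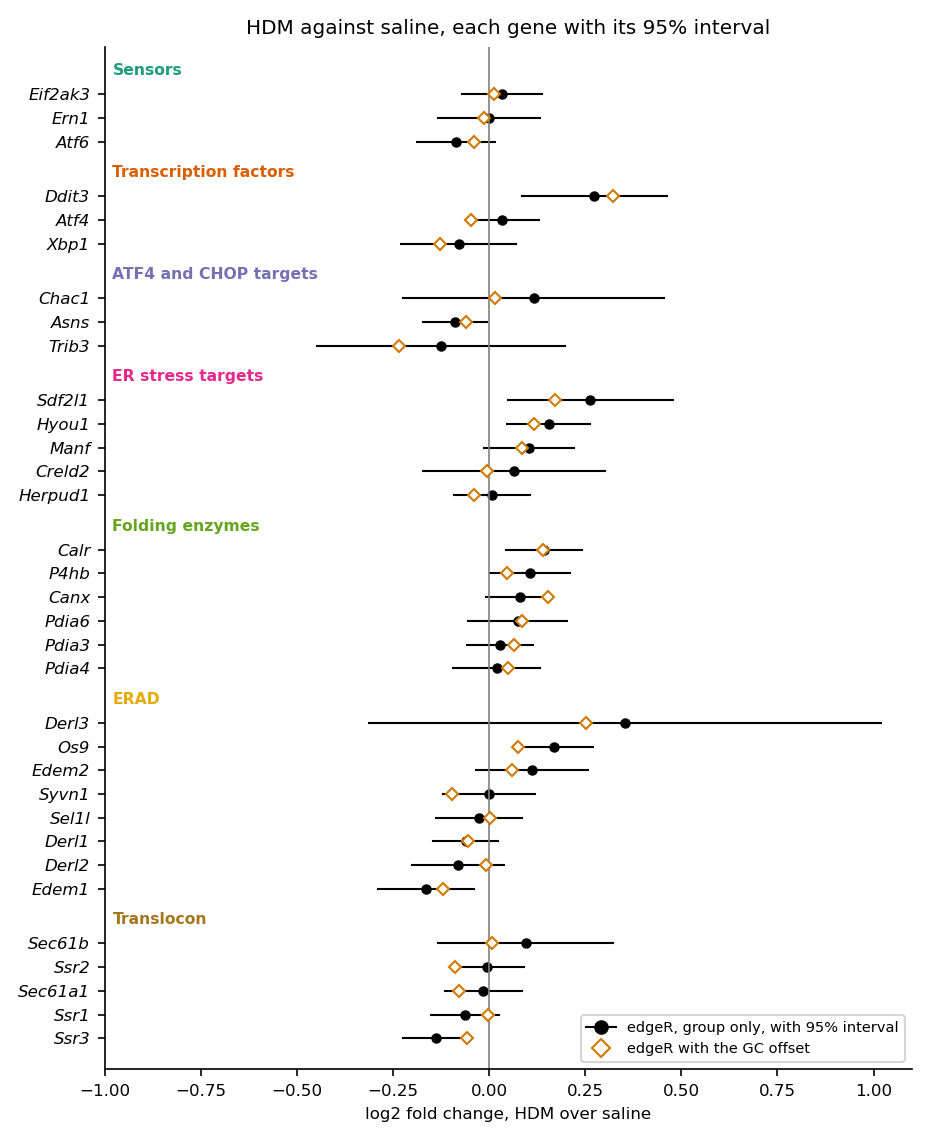
Log2 fold change of HDM over saline for each of the 33 genes by role. Black circles with bars are the edgeR values by group with their 95% intervals, and open diamonds are the values after an offset for GC content. The intervals of most genes include 0, those of Ddit3, Sdf2l1, Hyou1, Calr, P4hb and Os9 lie above it, those of Asns, Edem1 and Ssr3 below it, and Derl3 has the widest.

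The 3 sensors differed little between the treatments, with log2 fold changes from −0.087 to 0.033. Ern1, the kinase and ribonuclease that splices Xbp1, stood at 21.3, 22.5, 21.1 and 22.7 CPM in HDM 1 to 4 and at 20.4, 22.8, 22.6 and 21.7 CPM in saline 1 to 4. Its groups overlap fully, with saline 1 lowest and saline 2 highest (log2 fold change 5.68e-05, 95% interval −0.13 to 0.13, edgeR adjusted p = 0.9997). Atf6, the membrane-bound factor that is cut free in the Golgi, stood at 67.8, 73.7, 70.65 and 74.5 CPM in HDM 1 to 4 and at 74.3, 73.0, 78.8 and 78.4 CPM in saline 1 to 4. Saline 3 and saline 4 were highest and HDM 1 lowest, and HDM 4 lay above saline 1 and 2, so the groups overlap (log2 fold change −0.087, 95% interval −0.19 to 0.014, edgeR adjusted p = 0.346). Eif2ak3, which encodes PERK, stood at 63.5, 65.2, 63.7 and 58.8 CPM in HDM 1 to 4 and at 59.3, 58.9, 63.8 and 63.5 CPM in saline 1 to 4. HDM 2 was highest, HDM 4 lowest, and the groups overlap (log2 fold change 0.033, 95% interval −0.072 to 0.14, edgeR adjusted p = 0.759). Of the exonic bases of Eif2ak3, 8.05% also belong to Gm43292 on the opposite strand.

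Among the transcription factors, Ddit3 was the member in which every HDM library lay above every saline library, while Xbp1 and Atf4 overlapped. Ddit3 (ENSMUSG00000025408, GRCm38 chromosome 10, 127290774 to 127296288, plus strand) encodes CHOP, a factor induced late in the response, and stood at 24.4, 22.2, 20.9 and 22.05 CPM in HDM 1 to 4 and at 20.8, 20.02, 17.6 and 15.7 CPM in saline 1 to 4. HDM 1 was highest and saline 4 lowest, and the lowest HDM library, HDM 3, lay just above the highest saline library, saline 1. The HDM mean was 1.21 times the saline mean in the fit (log2 fold change 0.27, 95% interval 0.085 to 0.46, edgeR adjusted p = 0.128), and the difference was 0.23, 0.15, 0.25 and 0.49 in batches 1 to 4. Leaving out a library or a batch gave 0.20 to 0.33. Exons of Gm4189 and Mars on the opposite strand cover 4.73% of the exonic bases of Ddit3. The second Ddit3 locus, on the same strand, covers 6.13%, and how reads of that stretch were counted is not known. Xbp1, whose spliced mRNA gives the factor of the IRE1 branch, stood at 74.1, 78.2, 81.3 and 94.3 CPM in HDM 1 to 4 and at 83.95, 90.3, 80.3 and 92.0 CPM in saline 1 to 4. HDM 1 was lowest and HDM 4 highest, so the HDM libraries enclose those of saline (log2 fold change −0.080, 95% interval −0.23 to 0.069, edgeR adjusted p = 0.576). Atf4, which is controlled mainly in translation, stood at 151, 143, 139.7 and 153 CPM in HDM 1 to 4 and at 149, 142, 139 and 143 CPM in saline 1 to 4. HDM 4, HDM 1 and saline 1 were highest, with overlap (log2 fold change 0.034, 95% interval −0.061 to 0.13, edgeR adjusted p = 0.724), and HDM was higher in 4 of 4 batches, by 0.0070 to 0.099 on the log2 scale.

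Of the 3 targets of ATF4 and CHOP, 1 had a positive and 2 a negative value, with a median log2 fold change of −0.088. Asns, which makes asparagine, stood at 159, 154.5, 154 and 151 CPM in HDM 1 to 4 and at 160.5, 166.5, 168 and 163 CPM in saline 1 to 4. All HDM libraries lay below all saline libraries, though HDM 1 and saline 1 were close (log2 fold change −0.088, 95% interval −0.17 to −0.0052, edgeR adjusted p = 0.248). Trib3, a pseudokinase induced by CHOP, stood at 2.47, 2.36, 2.34 and 2.57 CPM in HDM 1 to 4 and at 2.54, 3.06, 2.19 and 2.82 CPM in saline 1 to 4. The HDM libraries lay close together inside the wider spread of saline, in which saline 2 was highest and saline 3 lowest (log2 fold change −0.13, 95% interval −0.45 to 0.20, edgeR adjusted p = 0.702). Chac1, an enzyme that degrades glutathione whose window holds the CARE printed above, stood at 4.18, 4.38, 3.54 and 5.13 CPM in HDM 1 to 4 and at 3.98, 5.07, 3.42 and 3.44 CPM in saline 1 to 4. HDM 4 and saline 2 were highest and the groups overlap (log2 fold change 0.12, 95% interval −0.22 to 0.46, edgeR adjusted p = 0.742).

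All 5 ER stress targets had positive log2 fold changes, from 0.0071 to 0.26 with a median of 0.10, though Herpud1 turned negative with upper-quartile size factors, without a filter and with the GC offset, and Creld2 with that offset. Of the 5, 0 passed. The set is a role of this list and does not hold all genes that the response induces. The ERAD genes, told below, had 3 positive and 5 negative values, and Hspa5, outside the list, had −0.019. Hyou1 (ENSMUSG00000032115, chromosome 9, 44379490 to 44392369, plus strand), a large chaperone of the ER that serves BiP as exchange factor, stood at 99.0, 101, 99.7 and 108 CPM in HDM 1 to 4 and at 88.1, 96.4, 86.5 and 95.7 CPM in saline 1 to 4. Every HDM library was above every saline library, with HDM 4 highest and saline 3 lowest (log2 fold change 0.15, 95% interval 0.048 to 0.26, edgeR adjusted p = 0.128). Leaving out a library or a batch gave 0.12 to 0.18 for Hyou1, so the sign did not rest on HDM 4. Sdf2l1, which works with BiP and its DnaJ partners, stood at 7.57, 8.11, 7.83 and 7.89 CPM in HDM 1 to 4 and at 6.96, 7.30, 5.85 and 6.07 CPM in saline 1 to 4. The groups do not overlap, and saline 3 and saline 4 were lowest (log2 fold change 0.26, 95% interval 0.048 to 0.48, edgeR adjusted p = 0.190). These values rest on 171 to 229 counts a library.
Manf, an ER protein that cells release under stress, stood at 70.7, 66.5, 61.0 and 69.0 CPM in HDM 1 to 4 and at 63.4, 65.4, 60.5 and 59.2 CPM in saline 1 to 4. HDM 1 and 4 were highest, but HDM 3 lay below saline 1 and 2 (log2 fold change 0.10, 95% interval −0.012 to 0.22, edgeR adjusted p = 0.327). Exons of 4930524O07Rik and Dcaf1 on the opposite strand cover 8.85% of its exonic bases. Creld2, a secretory protein induced by ER stress, with an ERSE, had 12.1 ± 1.62 CPM (HDM) against 11.6 ± 1.34 CPM (saline) (mean ± SD, n = 4 libraries a group, as for all such pairs here), with opposite signs in batches 1 and 2 (−0.18 and −0.29) and in batches 3 and 4 (0.40 and 0.31). Herpud1, which organises the ERAD ligase and holds ERSE-II and CARE, had 51.9 ± 1.95 CPM (HDM) against 51.7 ± 1.64 CPM (saline) (log2 fold change 0.0071, 95% interval −0.092 to 0.11). In each library, the median deviation of the 5 genes from their own means over the 8 libraries was taken on the log2 scale. It was 0.035 to 0.13 in HDM and −0.16 to 0.024 in saline. In every other role this median overlapped between HDM and saline, as in the folding genes (0.0085 to 0.058 and −0.097 to 0.037). Over all members it overlapped as well, with −0.0089 to 0.055 in HDM and −0.061 to 0.032 in saline. Whether the ER stress targets separate more than other gene sets of that size was not tested.

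The 6 folding genes had positive log2 fold changes, from 0.019 to 0.14 with a median of 0.076, under every scaling, filter and GC setting tried, and 0 of 6 passed in edgeR. Calr (ENSMUSG00000003814, chromosome 8, 84841850 to 84846934, minus strand), the soluble lectin chaperone calreticulin that also buffers ER calcium, stood at 384, 395, 368 and 379.9 CPM in HDM 1 to 4 and at 336, 371, 338 and 337 CPM in saline 1 to 4. Saline 2 lay above HDM 3 and so joined the HDM range, while the other 3 saline libraries lay at 336 to 338 CPM, below every HDM library. Its HDM level was 1.104 times the saline level (log2 fold change 0.14, 95% interval 0.044 to 0.24, edgeR adjusted p = 0.130), with an adjusted p of 0.0423 in DESeq2, and was higher in 4 of 4 batches. P4hb, the classic protein disulfide isomerase, stood at 168, 163, 156 and 162 CPM in HDM 1 to 4 and at 159, 157, 147 and 139.7 CPM in saline 1 to 4. Saline 3 and 4 were lowest, and saline 1 and 2 lay within the HDM range (log2 fold change 0.11, 95% interval 0.0012 to 0.21, edgeR adjusted p = 0.270). Canx, the membrane-bound partner of calreticulin, stood at 599.5, 624.5, 589.5 and 596 CPM in HDM 1 to 4 and at 561, 564, 573.5 and 583 CPM in saline 1 to 4. All HDM libraries lay above all saline libraries, with saline 4 and HDM 3 close to each other (log2 fold change 0.079, 95% interval −0.0074 to 0.17, edgeR adjusted p = 0.317). The other 3 overlapped between groups. Pdia3, the isomerase that calnexin and calreticulin recruit, had 373 ± 0.686 CPM (HDM) against 366 ± 11.05 CPM (saline), and its 4 HDM libraries lay within 372 to 374 CPM. Pdia6 had 123 ± 3.43 CPM (HDM) against 117 ± 11.1 CPM (saline) and Pdia4 72.7 ± 2.98 CPM (HDM) against 71.7 ± 4.54 CPM (saline), with log2 fold changes of 0.074 and 0.019. Pdia4 turned negative when single libraries or batches were left out (−0.037 to 0.069).

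**Figure D3:**
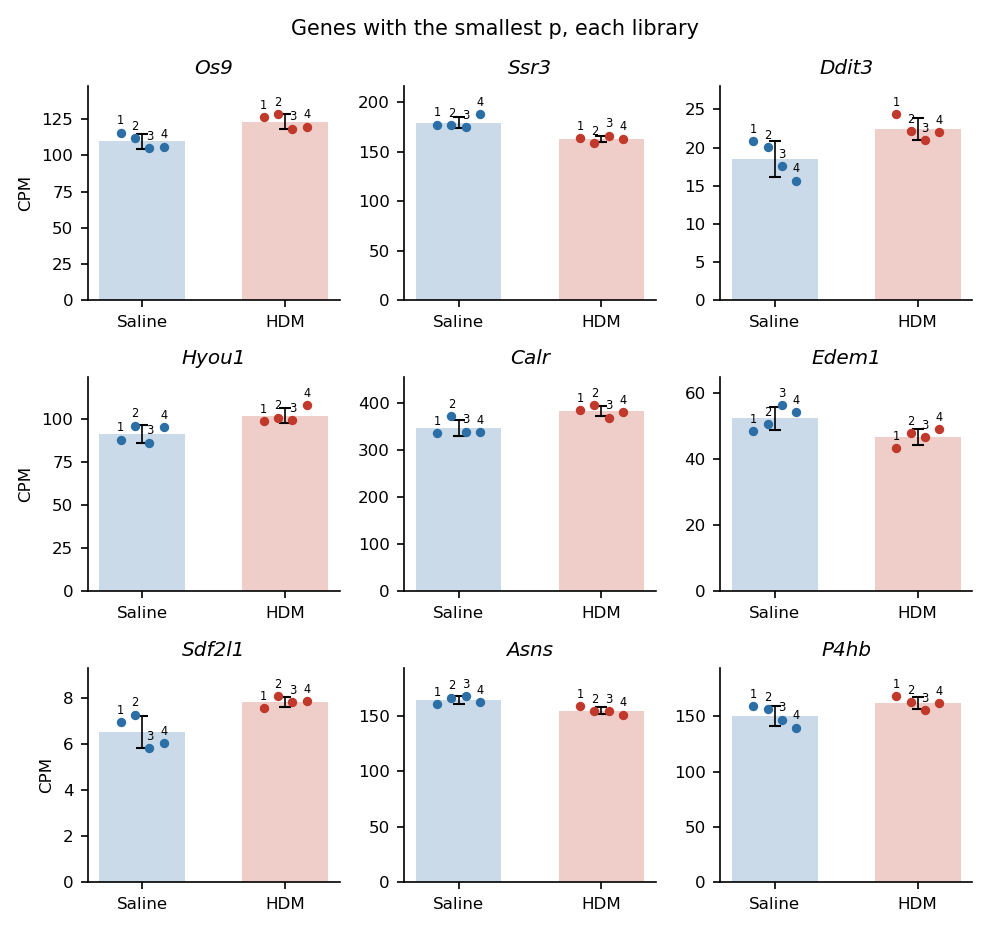
CPM of the 9 genes with an unadjusted p under 0.05, in each library (points, numbered by batch), with the mean of 4 libraries (bar) and the SD (error bar). HDM is higher in Os9, Ddit3, Hyou1, Calr, Sdf2l1 and P4hb and lower in Ssr3, Edem1 and Asns, and the differences are small against the level of each gene.

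In ERAD, 3 genes had positive and 5 negative values, with a median of −0.014, and the member with the smallest p of all 33 lay here. Os9 (ENSMUSG00000040462, chromosome 10, 127095650 to 127121131, minus strand), a lectin that hands misfolded glycoproteins to the ligase complex, stood at 126, 128, 118 and 119.6 CPM in HDM 1 to 4 and at 115.5, 112, 105 and 106 CPM in saline 1 to 4. Every HDM library exceeded every saline library, with HDM 2 highest and saline 3 lowest. The HDM level was 1.12 times the saline level (log2 fold change 0.17, 95% interval 0.069 to 0.27, edgeR adjusted p = 0.0833), and the difference was 0.13, 0.20, 0.17 and 0.18 in batches 1 to 4. With a library or a batch left out it was 0.15 to 0.19. With the batch as a block Os9 passed (edgeR adjusted p = 0.0296), as it did in DESeq2 (adjusted p = 0.0217). After the offset for GC content it was 0.075 (edgeR adjusted p = 0.503), and 0.075 with block and offset together (edgeR adjusted p = 0.395).
In the core of the ligase complex, Syvn1, the ubiquitin ligase HRD1, had 48.6 ± 3.35 CPM (HDM) against 48.6 ± 2.01 CPM (saline). Its partner Sel1l had 152 ± 4.88 CPM (HDM) against 155 ± 11.0 CPM (saline), and the differences of both were smaller than the spread between replicates. Edem1, which marks glycoproteins for disposal by trimming mannose, had 46.7 ± 2.52 CPM (HDM) against 52.3 ± 3.54 CPM (saline), lower in HDM in 4 of 4 batches though the ranges overlap (log2 fold change −0.16, 95% interval −0.29 to −0.040, edgeR adjusted p = 0.158). Its relative Edem2 had the opposite sign, 0.11, with 23.85 ± 0.873 CPM (HDM) against 22.1 ± 1.79 CPM (saline). Of the derlins, membrane proteins through which substrates leave the ER, Derl1 lay lower in every HDM library, at 81.1 to 84.4 CPM against 85.2 to 89.2 CPM in saline (log2 fold change −0.061, 95% interval −0.15 to 0.024). Derl2 had −0.081 with overlap. Derl3 had 0.35 at 0.525 CPM (HDM) against 0.412 CPM (saline), with an interval from 0.805-fold to 2.03-fold. Derl1 keeps 5.92% of its words of 50 bases in common with Gm35638.

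Of the 5 translocon genes 1 had a positive and 4 a negative value, with a median of −0.016. Ssr3 (ENSMUSG00000027828, chromosome 3, 65379655 to 65392623, minus strand), the gamma subunit of the translocon-associated protein complex TRAP, stood at 164, 159, 166 and 163.5 CPM in HDM 1 to 4 and at 177, 177, 175 and 188 CPM in saline 1 to 4. All HDM libraries lay below all saline libraries, and saline 4 was highest (log2 fold change −0.14, 95% interval −0.23 to −0.051, edgeR adjusted p = 0.103), with an adjusted p of 0.0219 in DESeq2. After the offset for GC content Ssr3 had −0.059 (edgeR adjusted p = 0.594). Ssr1, the alpha subunit, stood at 177, 179.6, 176 and 166 CPM in HDM 1 to 4 and at 186, 177, 182 and 186 CPM in saline 1 to 4. HDM 4 was lowest, and HDM 2 lay above saline 2, so the groups overlap (log2 fold change −0.063, 95% interval −0.15 to 0.026, edgeR adjusted p = 0.448). Sec61b, the small beta subunit of the protein-conducting channel, stood at 11.5, 10.5, 12.4 and 13.2 CPM in HDM 1 to 4 and at 12.5, 12.0, 10.7 and 9.25 CPM in saline 1 to 4. The groups overlap widely, with HDM 4 highest and saline 4 lowest (log2 fold change 0.095, 95% interval −0.13 to 0.32, edgeR adjusted p = 0.679). Near copies share part of this transcript: 15.28% of its words of 50 bases also occur in Gm10320 and Gm5870, so its counts are less certain. Sec61a1, the channel itself, had 115 ± 3.18 CPM (HDM) against 116 ± 6.33 CPM (saline), and shares 14.57% of its words with Gm44170. Exons of Gm44170 on the opposite strand cover 8.16% of the exonic bases of Sec61a1, and words were matched on either strand. Ssr2 had 41.9 ± 0.539 CPM (HDM) against 42.05 ± 1.30 CPM (saline), and 12.82% of its exonic bases lie opposite Gm10704. The 3 TRAP subunits among the 33 genes had log2 fold changes of −0.063 (Ssr1), −0.0058 (Ssr2) and −0.14 (Ssr3). The TRAP subunit Ssr4 is outside the list, and its value is not given here.

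**Figure D4:**
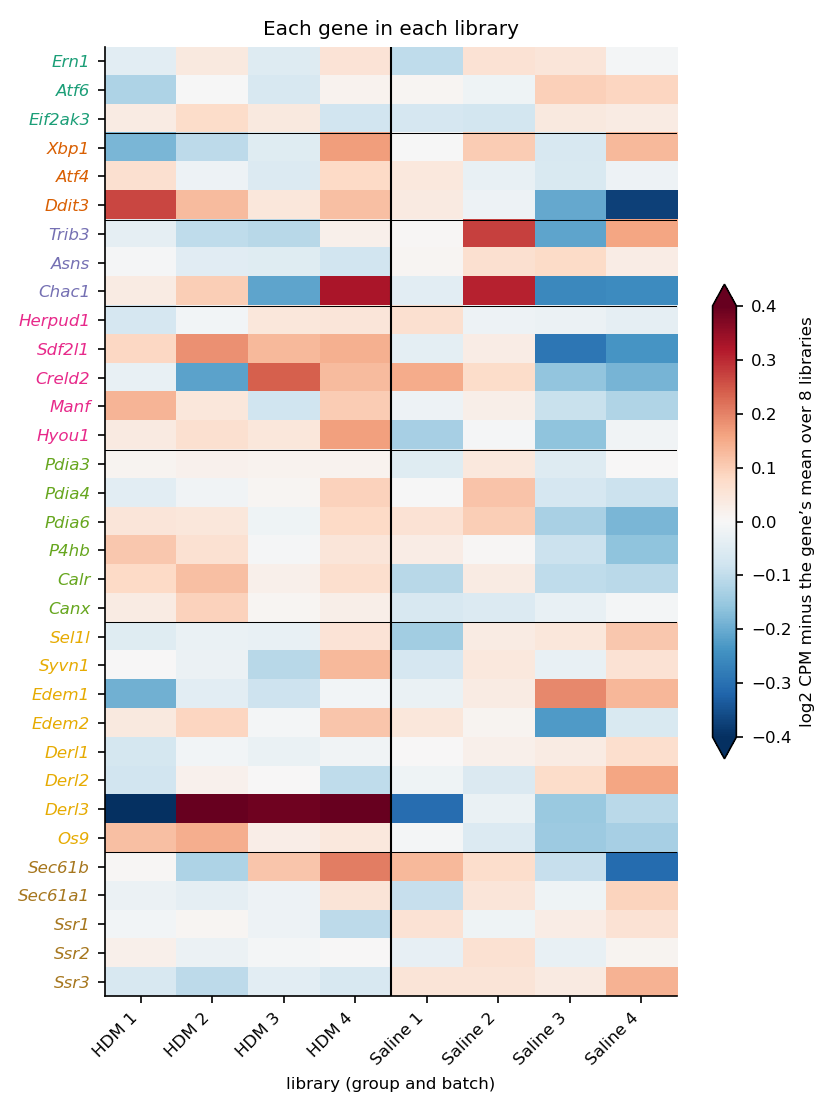
Log2 CPM of each of the 33 genes in each library minus its mean over the 8 libraries, by role from the sensors at the top through transcription factors, ATF4 and CHOP targets, ER stress targets, folding genes and ERAD to the translocon at the bottom. Red is above and blue below the mean, and colours end at 0.4. Ddit3, Sdf2l1, Hyou1, Os9, Calr, Canx and Pdia3 are above their mean in all 4 HDM libraries. Asns, Edem1, Derl1 and Ssr3 are below it in all 4, and Derl3 varies most.

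The differences moved with the GC content of transcripts. Split into 5 bins of equal size by the GC content of the longest transcript, all tested genes had median log2 fold changes of −0.086, −0.050, −0.0060, 0.042 and 0.10 from the lowest to the highest bin, and 172 of the 216 genes called as higher lay in the highest. The 33 genes run from 40.8% (Ssr3) to 58.2% GC (Trib3). Across them GC content and log2 fold change had r = 0.39 (n = 33 genes, which share the same 8 libraries), and −0.11 after the offset, which took their median to 0.0014. The offset, fitted per library on GC content, lowered Os9 (56.6% GC) from 0.17 to 0.075, Sdf2l1 (56.7%) from 0.26 to 0.17 and Hyou1 (52.3%) from 0.15 to 0.12. It left Calr (50.0%) at 0.14, and raised Ddit3 (45.6%) to 0.32 and Canx (42.2%) from 0.079 to 0.15. With it the 95% intervals of Ddit3, Hyou1 and Calr still lay above 0, that of Canx came to lie above 0, with edgeR adjusted p from 0.197 to 0.353 for these 4, and that of Edem1 still lay below 0 (log2 fold change −0.12, edgeR adjusted p = 0.415). With the offset 5 of the 33 genes had an unadjusted edgeR p under 0.05, beside 2056 of 17618 tested genes. Ern1, Atf4, Herpud1 and Creld2 changed to negative values, and Sel1l to a positive one. The folding genes had a median of 0.075 and the ER stress targets of 0.085 after the offset.

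**Figure D5:**
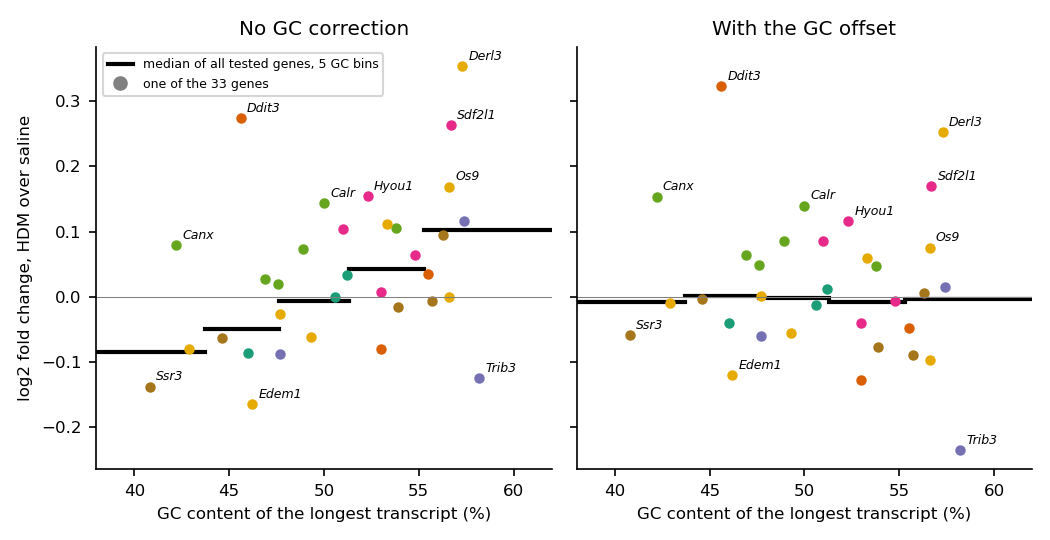
Log2 fold change of HDM over saline of the 33 genes (points, coloured by role as in the plot of levels) against the GC content of their longest transcript in percent, without a correction (left) and with the GC offset (right). Black bars are medians of all tested genes in 5 equal bins of GC content, which climb from −0.086 to 0.10 on the left and lie near 0 on the right. Ddit3, Canx, Calr, Hyou1, Os9, Sdf2l1 and Derl3 are among the genes that stay above the bars in both.

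The 6 genes with an ERSE in the window, Calr, Canx, Creld2, Derl3, Pdia6 and Syvn1, had log2 fold changes from −0.0011 to 0.35, 5 of them positive, with a median of 0.076. The 21 genes with an entry but no ERSE ran from −0.16 to 0.27, 13 of them positive, with a median of 0.019. The ranges overlap, and the difference between these sets was not tested.

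Other genes of the pathway were read from 7 lists of 161 symbols, of which 155 were tested. By group 2 were called as higher and 0 as lower (background 1.38%), and with the block 8 as higher and 1 as lower (background 4.05%), counts near those shares, while the median log2 fold change was −0.0089. Hspa5, which encodes BiP, the main ER chaperone and regulator of all 3 sensors, stood at 377, 368, 359.9 and 397 CPM in HDM 1 to 4 and at 369, 419, 351 and 383 CPM in saline 1 to 4. Saline 2 was highest and the groups overlap (log2 fold change −0.019, 95% interval −0.14 to 0.10, edgeR adjusted p = 0.895). Hsp90b1, the ER member of the Hsp90 family, and Dnajb9, a co-chaperone of BiP, had log2 fold changes of 0.036 and 0.062, both with intervals that include 0. Fkbp2, a prolyl isomerase of the ER, rose: it stood at 54.6, 55.85, 55.7 and 50.5 CPM in HDM 1 to 4 and at 44.9, 44.2, 41.3 and 33.9 CPM in saline 1 to 4. Its groups do not overlap, and saline 4 was lowest (log2 fold change 0.40, 95% interval 0.24 to 0.56, edgeR adjusted p = 0.02625). After the offset for GC content Fkbp2 (62.6% GC) had 0.26 (edgeR adjusted p = 0.193). Atf5, a stress-responsive factor related to ATF4, rose as well, with 78.6 ± 3.51 CPM (HDM) against 65.2 ± 1.105 CPM (saline) (log2 fold change 0.27, 95% interval 0.17 to 0.37, edgeR adjusted p = 0.0167), and had 0.13 after the offset (edgeR adjusted p = 0.282). Opposite-strand exons cover 4.11% of the exonic bases of Atf5 (Il4i1, Nup62) and 10.29% of those of Hsp90b1 (1810014B01Rik), and 14.29% of those of Aars also belong to Exosc6. With the block Prkcsh, Bag6, Emc10, Ppp1r15a, Aars and Sars also rose, by 0.16 to 0.25 on the log2 scale, and Selenof, a thioredoxin-like ER protein, fell by 0.15. Ppp1r15a, which encodes GADD34, the phosphatase subunit that ends PERK signalling, had 32.2 ± 1.725 CPM (HDM) against 27.0 ± 1.37 CPM (saline) (edgeR adjusted p = 0.0537 by group and 0.0294 with the block). Of these 9 genes Fkbp2 alone kept an adjusted p under 0.05 with block and offset (edgeR adjusted p = 0.0491). The list of ATF4 targets, mostly of amino acid metabolism and tRNA charging, had 22 tested genes with log2 fold changes from −0.87 to 0.19 and a median of 0.070, or 0.035 after the offset.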

How the data were processed

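RNA was measured by sequencing in 8 libraries of vagal ganglia, 4 per treatment. Per the labels' protocols, RNA was purified with a column kit and libraries were made with a stranded mRNA kit and sequenced as pairs of 50 bp. The authors deposited whole-number counts per gene, not normalised, made with featureCounts on GRCm38 (mm10) per the submitters' processing notes. The sources used here do not give the aligner, strand setting or versions, so reads of overlapping genes on opposite strands may have been counted together.

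From these counts, genes were kept with filterByExpr and tested with edgeR 4.0.16 in R 4.3.3 (quasi-likelihood F-test, TMM factors, group as the only term, 2-sided, Benjamini-Hochberg adjustment over 17618 genes, called at an adjusted p under 0.05). CPM and RPKM are TMM-scaled, RPKM with the deposited exonic lengths. Errors are SD over 4 libraries, and 95% intervals come from the fit. Gene positions, overlaps and GC content come from GENCODE release M21. The GC offset is a natural spline (4 degrees of freedom) of log2 CPM on GC content per library, using genes whose mean log2 CPM exceeds 3. DESeq2 1.42.0, limma-voom (limma 3.58.1), other size factors, 2 other filters, a threshold of 0.10, the batch as a block, and leaving out each library or batch were alternatives. The fits were tested on simulated counts, drawn for each gene on its own with no GC trend or batch effect. Recovery in them need not hold for these libraries, whose values moved with GC content. The fit by group recovered 11 of 67 genes changed by 0.25 on the log2 scale (16.4%). It recovered 42 of 66 at 0.5 (63.6%) and 57 of 66 at 1.0 (86.4%), with 11 false calls. With the block these were 10 of 67, 43 of 66 and 56 of 66, with 15 false calls.

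The batch labels pair the libraries. Within a batch, the 2 libraries' deviations from their group means had r from −0.048 to 0.039 across genes, so the pairing comes from the labels alone. A count of 0 allows up to 3 counts of a library, 0.0956 to 0.126 CPM, which covers counting error only. Members and lists were chosen with earlier results of these data known. All 33 genes could be named. Told library by library were those called by group or with the block, the 3 with the smallest p of each role without a call, the sensors and the transcription factors. Of other ER genes, those called in either fit and Hspa5, Hsp90b1 and Dnajb9 were named. The planned search for protein sequence motifs was not run, and proteins were not used here.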

Additional observations from a re-analysis of the deposited data

Results flagged for a closer look

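In each gene and group of 4 libraries, the highest and the lowest were compared with their nearest neighbour. Of 66 such groups 4 had 1 library far from the other 3, and chance alone gives about 1 in 20. Herpud1 was highest in saline 1 at 54.12 CPM, with the next saline library at 51.1 CPM. Calr was highest in saline 2 at 371.4 CPM, against 338.1 CPM in the next, and it is this library that makes the groups overlap. Derl3 was lowest in HDM 1 at 0.2929 CPM, against 0.596 CPM in the next. Ssr3 was highest in saline 4 at 188.3 CPM, against 177.4 CPM in the next. Without saline 2 Calr had a log2 fold change of 0.18, without HDM 1 Derl3 had 0.54, and without saline 4 Ssr3 had −0.12, each with the sign it had before. Without saline 1 Herpud1 had 0.024, against 0.0071 with all libraries, and its sign turned in 6 of the other settings that leave out a library or a batch.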

How the results depend on the processing

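Of the 33 genes 0 were called by group, with other size factors, other filters, limma-voom, the GC offset, the block with GC offset, or any library or batch left out. DESeq2 called 3, the replicate block 1 (Os9), and a threshold of 0.10 also 1, and the block changed no other call. Over all genes 244 were called, against 722 without a filter, 843 in DESeq2, 713 with the replicate block, 0 with the GC offset (2056 at an unadjusted p under 0.05), 29 with block and GC offset, 709 at a threshold of 0.10, and 0 to 376 with a library or batch left out. RLE size factors gave 195, upper-quartile size factors 170, a minimum of 1 CPM 218 and limma-voom 214. The count was 0 without HDM 1, HDM 2, saline 3 or batch 2 (2449, 2452, 2373 and 2357 genes at an unadjusted p under 0.05). It was 376 without HDM 3, 60 without HDM 4, 97 without saline 2, and 5, 24 and 4 without batches 1, 3 and 4. The members' median ran from −0.020 (without batch 4) to 0.041 with libraries or batches left out. Of the 33 genes 21 kept 1 sign in all settings, and 51 of 692 values turned sign, in the 12 others, for which the cause was not tested. Ern1 had −0.0033 with RLE and −0.011 with upper-quartile size factors, −0.013 without a filter, −0.0059 with a minimum of 1 CPM, −0.0034 in DESeq2, −0.013 with the GC offset and −0.012 with block and offset. Herpud1 had −0.0038 with upper-quartile factors and −0.0061 without a filter. With the GC offset, alone and with the block, Herpud1 had −0.041 and −0.041, Atf4 −0.048 and −0.048, Creld2 −0.0060 and −0.010, and Sel1l 0.0014 and 0.0032. With libraries or batches left out the log2 fold change ran from −0.038 to 0.034 for Ern1, from −0.0072 to 0.077 for Eif2ak3, from −0.048 to 0.26 for Chac1, from −0.021 to 0.052 for Herpud1, from −0.050 to 0.17 for Creld2, from −0.037 to 0.069 for Pdia4, from −0.080 to 0.0022 for Sel1l, from −0.047 to 0.034 for Syvn1, from −0.042 to 0.19 for Sec61b, from −0.054 to 0.0086 for Sec61a1, and from −0.026 to 0.019 for Ssr2. Derl3 was not tested with a minimum of 1 CPM. The upper limits of the 95% intervals of the 4 genes under 10 CPM were 2.03-fold for Derl3, 1.37-fold for Chac1, 1.146-fold for Trib3 and 1.39-fold for Sdf2l1.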
